A study of Mus musculus with 13 samples.

Results

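The receptors through which growth factors act on myeloid cells were followed across 4 genotypes of mouse bone marrow HSPCs, the stem and progenitor cells of the blood. The group held 9 genes, taken by symbol from the deposited count tables: Csf3r, Csf1r, Csf2ra, Csf2rb, Csf2rb2, Il3ra, Flt3, Il6ra and Il6st. Each had 1 row among the 55421 genes of the tables, and all 9 passed the filter on low counts that left 19289 genes for testing. The bulk RNA-seq libraries were labelled Setd2 knockout and Srsf2 mutated together (called double mutant, n = 3), Srsf2 mutated (n = 3), Setd2 knockout (n = 2) and WT (called wild type, n = 2). Setd2 encodes the methyltransferase that trimethylates lysine 36 of histone H3, and Srsf2 encodes a splicing factor of the SR family. For the single-cell samples of the series, not analysed here, the labels give Lin- c-Kit+ cells of Mx1-Cre+ mice with Srsf2P95H/+ alone, with Setd2fl/fl and Srsf2P95H/+ together, or with neither, taken 4 weeks after pIpC in a transplant (BMT) model. Mx1-Cre is a recombinase under an interferon-inducible promoter and is not restricted to blood cells, and pIpC is the double-stranded RNA that switches it on. The alleles, the sort, the transplant, the time, the age of the mice and whether replicates came from separate mice are not stated for the bulk libraries, so p-values measure only the spread between these libraries, which may be technical.

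Receptors of this kind set how progenitors answer to colony-stimulating factors and interleukins. Csf3r pairs with itself to bind granulocyte colony-stimulating factor and drives neutrophil production. Csf1r and Flt3 are receptor tyrosine kinases, the first for macrophage colony-stimulating factor and interleukin-34, the second for the FLT3 ligand of early progenitors and dendritic cells. Csf2ra and Il3ra bind granulocyte-macrophage colony-stimulating factor and interleukin-3, and signal only with a beta chain: Csf2rb, shared by both and by the interleukin-5 receptor, or Csf2rb2, a mouse paralogue that works with Il3ra alone. Il6ra binds interleukin-6 and signals through Il6st (gp130), the chain shared by the interleukin-6 family. All but the tyrosine kinases signal mainly through JAK kinases and STAT factors.

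The beta chain genes are near copies, and the text treats their counts with care for that reason. Csf2rb2 (chromosome 15, 78282507 to 78305721, minus strand) and Csf2rb (chromosome 15, 78325752 to 78353847, plus strand; GRCm38, GENCODE M21) lie 20030 bases apart. Their coding sequences, of 2634 and 2688 bases, were 95.2% identical over 2628 aligned bases, and the longest identical run held 242 bases. Of all windows of 150 bases in the Csf2rb2 coding sequence, 6.64% occurred unchanged in a Csf2rb transcript, and of windows of 50 bases 26.6% did. Bases 23 to 112 of each coding sequence are shown because they print how little separates the genes, with the 4 differing bases in capitals:
Csf2rb2 coding: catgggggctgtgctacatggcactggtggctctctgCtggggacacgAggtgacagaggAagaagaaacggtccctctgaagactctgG
Csf2rb coding: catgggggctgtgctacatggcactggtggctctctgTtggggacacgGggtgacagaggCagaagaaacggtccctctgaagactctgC

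Promoters of 3 members are shown, those of the pair that was highest in double mutant libraries and that of the beta chain that went the other way. They come from RefSeq on GRCm38.p6, cut to the bases before every annotated transcript start, and 7 of the 9 genes had an entry. Capitals mark matches, on either strand, to the PU.1 core GAGGAA, the C/EBP motif TTNCNNAA, the GATA motif AGATAA or the STAT motif TTCNNNGAA. Csf3r is shown at chr4:126024409-126024549 (plus strand), Csf2ra at chr19:61228430-61228668 (minus strand) and Csf2rb2 at chr15:78305722-78305971 (minus strand):
Csf3r promoter: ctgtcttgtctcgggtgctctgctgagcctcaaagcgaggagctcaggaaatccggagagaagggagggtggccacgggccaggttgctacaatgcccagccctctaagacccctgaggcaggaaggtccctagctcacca
Csf2ra promoter: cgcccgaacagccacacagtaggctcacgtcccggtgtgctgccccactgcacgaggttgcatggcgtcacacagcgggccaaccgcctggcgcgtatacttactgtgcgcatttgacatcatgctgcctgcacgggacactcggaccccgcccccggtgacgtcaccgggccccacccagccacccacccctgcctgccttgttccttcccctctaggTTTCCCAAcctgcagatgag
Csf2rb2 promoter: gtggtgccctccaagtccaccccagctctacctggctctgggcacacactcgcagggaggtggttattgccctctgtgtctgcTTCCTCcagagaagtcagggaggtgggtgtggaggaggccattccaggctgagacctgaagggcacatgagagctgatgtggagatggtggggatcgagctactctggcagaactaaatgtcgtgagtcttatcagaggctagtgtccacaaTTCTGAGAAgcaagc
The stretches printed hold 141 bases for Csf3r, 239 for Csf2ra and 250 for Csf2rb2, and the cut took PU.1 core matches out of those of Csf3r and Csf2ra. In the whole windows of 250 bases Csf3r held 1 match to the PU.1 core, Csf2ra 2 to the PU.1 core and 1 to C/EBP, and Csf2rb2 1 to the PU.1 core and 1 to STAT. Among 32851 promoter windows of 250 bases, 23.3% held the PU.1 core, 36.8% the C/EBP motif, 9.99% the GATA motif and 7.02% the STAT motif, so each match is a description of letters and no more.

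The libraries held 32117387 to 50445434 counts on genes. Replicate 3 of the Srsf2 mutated group stood apart from its group on the second principal component (-75.5, against -36.9 and -42.5), and results that turn on it are given without it. Whole-gene counts of Setd2 averaged 130 CPM (counts per 1000000 counts of a library, scaled by TMM) in double mutant, 197 in Srsf2 mutated, 222 in Setd2 knockout and 152 in wild type libraries. Setd2 was thus higher in the Setd2 knockout group than in wild type (log2 fold change 0.55). The double mutant, whose label also holds the knockout, went the other way against Srsf2 mutated (-0.60). Since a whole-gene count also takes reads of exons outside a deletion, it checks neither the Setd2 label nor the Srsf2 label. The group names below are the labels' own. Xist averaged 7.41 CPM in double mutant, 1.78 in Srsf2 mutated, 0.598 in Setd2 knockout and 486 in wild type. The Y-linked Ddx3y averaged 124 CPM in double mutant, 111 in Srsf2 mutated, 0 in Setd2 knockout and 0 in wild type, so the sex chromosomes differ between the groups and cannot be told apart from genotype in any comparison except double mutant against Srsf2 mutated, where both groups carried Ddx3y. Stem and progenitor markers were present throughout, with Kit at 163 CPM in double mutant, 206 in Srsf2 mutated, 445 in Setd2 knockout and 422 in wild type libraries and no gene of the 18-gene list at 0 in any group. Markers of maturing cells were present too. The summed level of 20 late neutrophil genes (S100a8, Ltf, Camp and others) was 40405 to 41220 CPM in double mutant, 17782 to 21562 in Srsf2 mutated, 7875 to 8455 in Setd2 knockout and 21206 to 29214 in wild type libraries. In bulk RNA, fewer cells of a type and less RNA per cell cannot be told apart.

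Per gene length, the receptors were mostly among the well expressed genes. In double mutant libraries Csf2ra led with 151 FPKM (fragments per kilobase of gene and 1000000 fragments of the library, as deposited), followed by Csf3r with 115. Csf2rb (36.4) and Csf1r (36.3 FPKM) came next and did not differ beyond their spread, and Il3ra, Csf2rb2 and Il6ra followed at 13.8, 13.5 and 13 FPKM. Flt3 (5.56) and Il6st (3.91 FPKM) were lowest. In Srsf2 mutated libraries Csf2ra (86.8 FPKM) and Csf3r (49.9 FPKM) also led, and Csf2rb2 came just after Csf2rb, at 22.9 and 31.8 FPKM. Setd2 knockout libraries had the same leading pair, at 67.3 and 60.4 FPKM, while Csf2rb2 was last at 3.43 FPKM. In wild type libraries Csf3r (66.0 FPKM) was above Csf2ra (51.9 FPKM), and Il6st and Csf2rb2 shared the last place at 4.31 and 4.24 FPKM. Summed over the 9 genes, the level was 379 to 394 FPKM in double mutant, 250.4 to 282 in Srsf2 mutated, 214 to 215 in Setd2 knockout and 217 to 218 in wild type libraries. FPKM carries no TMM scaling, so differences between genotypes can depart from those in CPM. Flt3 averaged 13.3 FPKM in Setd2 knockout and 12.8 in wild type libraries, but 75.5 and 84.1 CPM. Genotypes are therefore compared on CPM and the fit below.

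**Figure D1:**
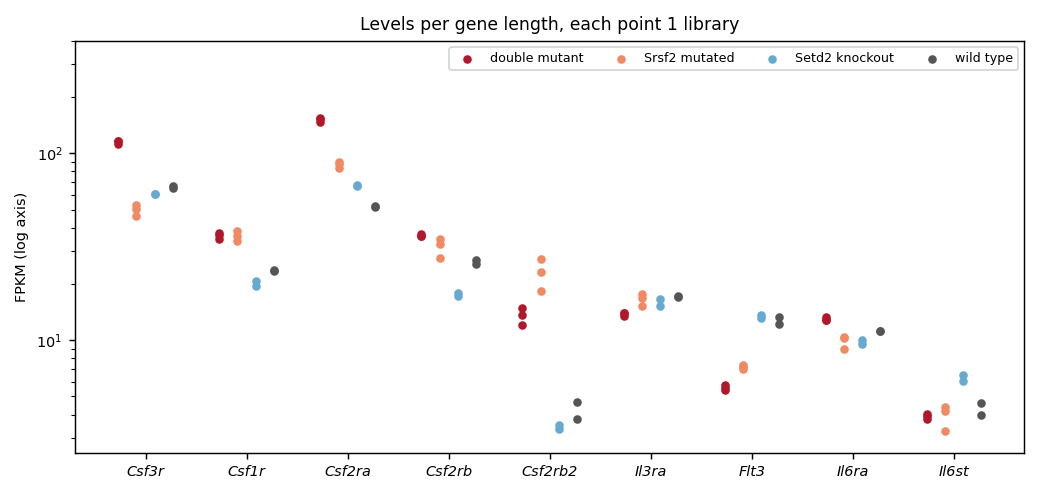
FPKM of each receptor gene on a log axis, each point 1 library, with the 4 genotypes side by side within a gene. Csf2ra and Csf3r sit highest, near 151 and 115 FPKM in double mutant libraries, and Csf2rb2 spans the widest range, with means of 22.9 FPKM in Srsf2 mutated and 3.43 FPKM in Setd2 knockout libraries.

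Most receptors differed between genotypes, in tables where many genes did. Calls are those with an adjusted p under 0.05 (edgeR's quasi-likelihood test, Benjamini-Hochberg over the 19289 genes). In double mutant against wild type, 6 of the 9 receptors were higher and 2 lower, where 63% of all tested genes were called (33.5% higher, 29.5% lower). Against Setd2 knockout, double mutant libraries had 6 receptors higher and 2 lower, where 51.8% of all genes were called (26% higher, 25.8% lower). Against Srsf2 mutated they had 4 higher and 2 lower, where 33.8% were called (17.8% higher, 15.9% lower). In Srsf2 mutated against wild type 3 were higher and 4 lower, with 56.3% of all genes called (28.5% higher, 27.8% lower). In Setd2 knockout against wild type 1 was higher and 6 lower, with 38.6% of all genes called (18.7% higher, 19.9% lower); with Setd2 knockout replicate 1 left out, 4 receptors were called, all lower. The libraries of both groups did not overlap for 9 receptors in double mutant against wild type (76.8% of all genes), 8 against Setd2 knockout (73.5%), 7 against Srsf2 mutated (45.4%), 8 in Srsf2 mutated against wild type (66.5%) and 9 in Setd2 knockout against wild type (73.1%), so separate groups were common in these tables. The median log2 fold change of the 9 receptors was 0.44 in double mutant against wild type (0.13 over all tested genes), 1.04 against Setd2 knockout (0.01), 0.11 against Srsf2 mutated (0.00), -0.19 in Srsf2 mutated against wild type (0.08) and -0.34 in Setd2 knockout against wild type (0.04). The shares of all tested genes called in each comparison are also the background of the marker counts below.

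**Figure D2:**
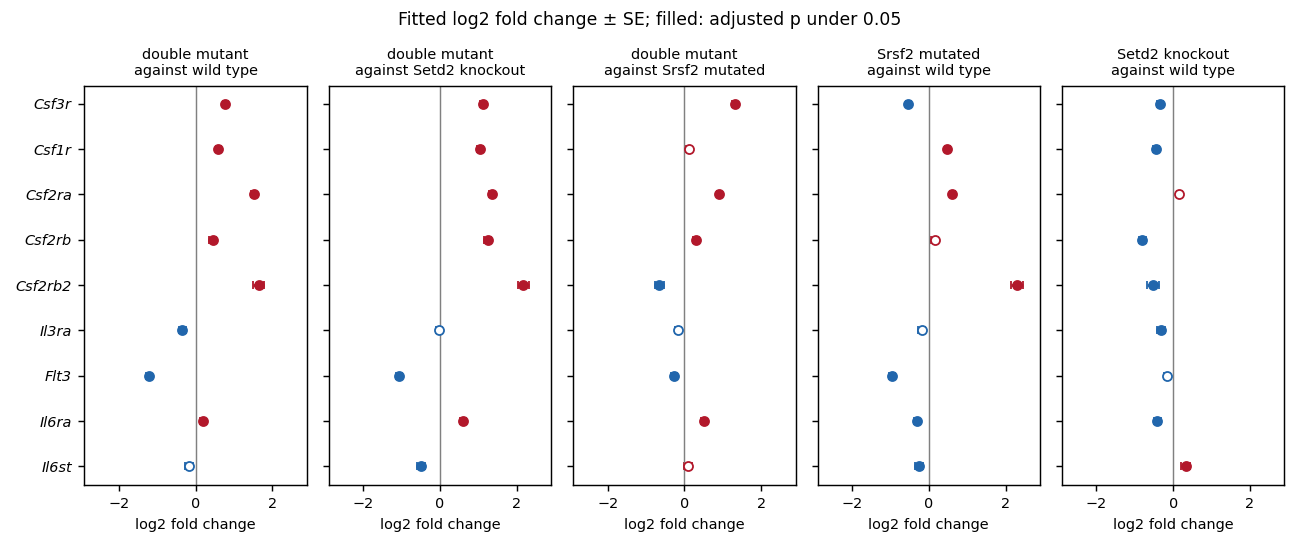
Fitted log2 fold change (x axis) with its standard error for each receptor gene in 5 pairwise comparisons, the first-named genotype over the second. Filled points passed an adjusted p of 0.05; the points run from Flt3 at -1.23 in double mutant against wild type to Csf2rb2 at 2.30 in Srsf2 mutated against wild type.

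Csf3r (chromosome 4, 126024550 to 126044440, plus strand), the neutrophil growth factor receptor, was highest in double mutant libraries although both single genotypes were below wild type. It had 440.3, 437 and 421 CPM in double mutant libraries, 177, 184 and 165 CPM in Srsf2 mutated libraries, 199.9 and 200.3 CPM in Setd2 knockout libraries and 255 and 253 CPM in wild type libraries. No group overlapped another, and the order was double mutant, wild type, Setd2 knockout, Srsf2 mutated. In double mutant against wild type the log2 fold change was 0.77 ± 0.0675 (SE; adjusted p = 6.97e-08), a 1.7-fold higher level. Against Srsf2 mutated it was 1.31 ± 0.0600 (adjusted p = 1.02e-10), a 2.47-fold difference, and against Setd2 knockout 1.11 ± 0.0684 (adjusted p = 1.31e-09). Csf3r fell by 0.54 on the log2 scale in Srsf2 mutated against wild type (adjusted p = 4.19e-06). In the libraries labelled Setd2 knockout it fell by 0.34 against wild type (adjusted p = 0.00147). The late neutrophil genes were highest in double mutant libraries as well, 16 of the 20 higher and 0 lower against wild type, and 20 of 20 higher against each single genotype. The early neutrophil genes (Mpo, Elane, Prtn3 and others) were not: of 17, 2 were higher and 14 lower in double mutant against wild type (median log2 fold change -1.11), and their summed level was 11343 to 11487 CPM in double mutant, 13064 to 15167 in Srsf2 mutated, 18176 to 19456 in Setd2 knockout and 32630 to 32955 in wild type libraries. The late neutrophil genes did not share the order of Csf3r among the other groups, since their summed level was lowest in Setd2 knockout libraries. The part of neutrophil content in the Csf3r level was not tested.

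**Figure D3:**
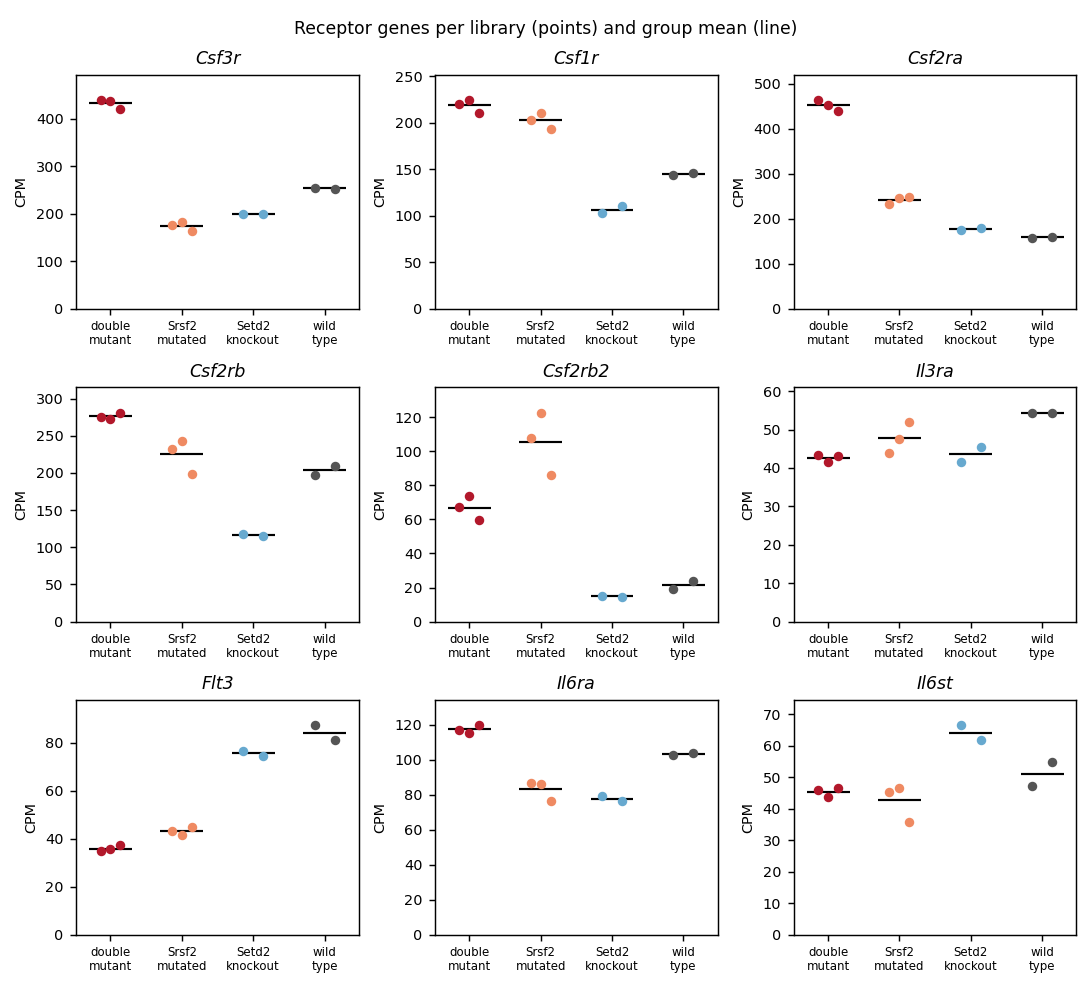
CPM of each receptor gene (y axis from 0) in every library (points) with the group mean (line), in double mutant, Srsf2 mutated, Setd2 knockout and wild type. Csf3r and Csf2ra are far above the other groups in double mutant libraries (means 433 and 453 CPM), Csf2rb2 peaks in Srsf2 mutated libraries (mean 105.5 CPM) and Flt3 is lowest in double mutant libraries (mean 35.9 CPM).

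Csf1r (chromosome 18, 61100598 to 61132149, plus strand), the macrophage growth factor receptor, went with the Srsf2 label. Its levels were 221, 225 and 211 CPM in double mutant, 203, 211 and 194 CPM in Srsf2 mutated, 103 and 110.1 CPM in Setd2 knockout and 145 and 147 CPM in wild type libraries. Libraries with mutated Srsf2 were all above those without it, and double mutant and Srsf2 mutated libraries overlapped at 211 CPM. The double mutant was 1.5-fold above wild type (log2 0.59 ± 0.0690, adjusted p = 1.86e-06) and 2.06-fold above Setd2 knockout (adjusted p = 4.15e-09). Against Srsf2 mutated the difference was 0.11 ± 0.0606 (adjusted p = 0.181; 95% interval -0.01 to 0.23). Srsf2 mutated was 1.39-fold above wild type (adjusted p = 2.30e-05), and Setd2 knockout fell by 0.45 (adjusted p = 0.000201). Of 5774 exonic bases of Csf1r, 873 overlap exons of Hmgxb3 on the other strand, and without stated strandedness reads there cannot be told apart. Hmgxb3 itself averaged 37.3 CPM in double mutant, 38.6 in Srsf2 mutated, 62.1 in Setd2 knockout and 61.6 in wild type, opposite in order to Csf1r between the Srsf2 labels.

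The 22 monocyte and macrophage genes, of which 0 were at 0 in any group, summed to 7197 to 7437 CPM in double mutant, 3609 to 4188 in Srsf2 mutated, 2726 to 2830 in Setd2 knockout and 3982 to 4497 in wild type libraries. Of them, 19 were higher and 3 lower in double mutant against wild type, and 14 higher and 3 lower in Srsf2 mutated against wild type (median log2 fold change 0.63), where the sums overlapped; Csf1r was higher in both comparisons. In double mutant against Srsf2 mutated, where Csf1r was not called, 14 were higher and 2 lower. In Setd2 knockout against wild type, where Csf1r was lower, 5 were higher and 7 lower. Their part in the Csf1r level was not tested.

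Csf2ra (chromosome 19, 61223957 to 61228429, minus strand), the binding chain for granulocyte-macrophage colony-stimulating factor, was highest in the double mutant and also higher in Srsf2 mutated than in wild type libraries. It had 465, 454 and 439 CPM in double mutant, 233, 247 and 248 CPM in Srsf2 mutated, 176 and 179 CPM in Setd2 knockout and 158 and 159.8 CPM in wild type libraries. No groups overlapped. The double mutant was 2.85-fold above wild type (log2 1.51 ± 0.0673, adjusted p = 2.11e-11), 2.55-fold above Setd2 knockout (adjusted p = 8.56e-11) and 1.87-fold above Srsf2 mutated (log2 0.90 ± 0.0574, adjusted p = 4.76e-09). Srsf2 mutated was 1.53-fold above wild type (adjusted p = 9.57e-07). Setd2 knockout against wild type stood at 0.16 ± 0.0702 (adjusted p = 0.0842), and that value passed the threshold with upper-quartile scaling (0.25, adjusted p = 0.0106), with a stricter filter on low counts (0.27, adjusted p = 0.00464) and without Srsf2 mutated replicate 3 (adjusted p = 0.0327).

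Csf2rb, the common beta chain, was also highest in the double mutant, but with a low point in Setd2 knockout libraries. Its levels were 275, 272 and 281 CPM in double mutant, 233, 244 and 199 CPM in Srsf2 mutated, 119 and 115 CPM in Setd2 knockout and 197 and 209.5 CPM in wild type libraries. Srsf2 mutated and wild type libraries overlapped, and the other groups did not. Double mutant libraries were 1.36-fold above wild type (log2 0.44 ± 0.0813, adjusted p = 0.000202), 2.37-fold above Setd2 knockout (adjusted p = 4.23e-09) and 1.23-fold above Srsf2 mutated (adjusted p = 0.00438). Csf2rb fell by 0.80 ± 0.0889 in Setd2 knockout against wild type (adjusted p = 4.34e-06). Srsf2 mutated against wild type gave 0.15 ± 0.0807 (adjusted p = 0.136); without Srsf2 mutated replicate 3, the lowest library of its group, the value was 0.23 (adjusted p = 0.00272), and it also passed with upper-quartile scaling (0.25, adjusted p = 0.0183) and the stricter filter (0.28, adjusted p = 0.00799).

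Csf2rb2, the paralogue that serves interleukin-3 alone, had the widest range of the receptors and its peak in Srsf2 mutated libraries. It had 67.3, 73.5 and 59.8 CPM in double mutant, 108, 123 and 86.0 CPM in Srsf2 mutated, 15.2 and 14.6 CPM in Setd2 knockout and 19.0 and 23.9 CPM in wild type libraries. No groups overlapped. Srsf2 mutated was 4.93-fold above wild type (log2 2.30 ± 0.145, adjusted p = 2.46e-09), and the double mutant was 3.12-fold above wild type (1.64 ± 0.142, adjusted p = 5.68e-08) and 4.49-fold above Setd2 knockout (adjusted p = 4.07e-09). Against Srsf2 mutated, however, double mutant libraries fell by 0.66 ± 0.117 (adjusted p = 0.000345), the opposite direction to Csf2rb. Setd2 knockout against wild type gave -0.52 ± 0.153 (adjusted p = 0.0135), a call that ended without Setd2 knockout replicate 1 (adjusted p = 0.0622), without Setd2 knockout replicate 2 (0.0748) and without wild type replicate 2 (-0.35, adjusted p = 0.166).

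Since reads of the near-identical stretches printed above could have been given to either gene, the counts were also summed, a choice made after seeing the data. The summed beta chains were higher in double mutant against wild type (0.61 ± 0.0892, adjusted p = 2.10e-05), against Setd2 knockout (1.38) and in Srsf2 mutated against wild type (0.56, adjusted p = 6.68e-05), and lower in Setd2 knockout against wild type (-0.77, adjusted p = 1.52e-05). Between double mutant and Srsf2 mutated the sum differed by 0.05 ± 0.0783 (adjusted p = 0.654), so the opposite moves of the pair there offset each other in the sum. Csf2rb2 made up 19.7, 21.3 and 17.5% of the summed counts in double mutant, 31.6, 33.5 and 30.2% in Srsf2 mutated, 11.4 and 11.3% in Setd2 knockout and 8.78 and 10.2% in wild type libraries. Its share was thus raised in every library with mutated Srsf2, and more so where Setd2 was not labelled knockout. By group mean, summed mast cell and basophil genes ran in the order of Csf2rb2. They averaged 905 CPM in double mutant, 1421 in Srsf2 mutated, 546 in Setd2 knockout and 663 in wild type libraries. Summed eosinophil genes ran in the order of Csf2rb. Their averages were 2102 CPM in double mutant, 1587 in Srsf2 mutated, 187 in Setd2 knockout and 974 in wild type. The part of such cells in the levels of Csf2ra, Csf2rb and Csf2rb2 was not tested.

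**Figure D4:**
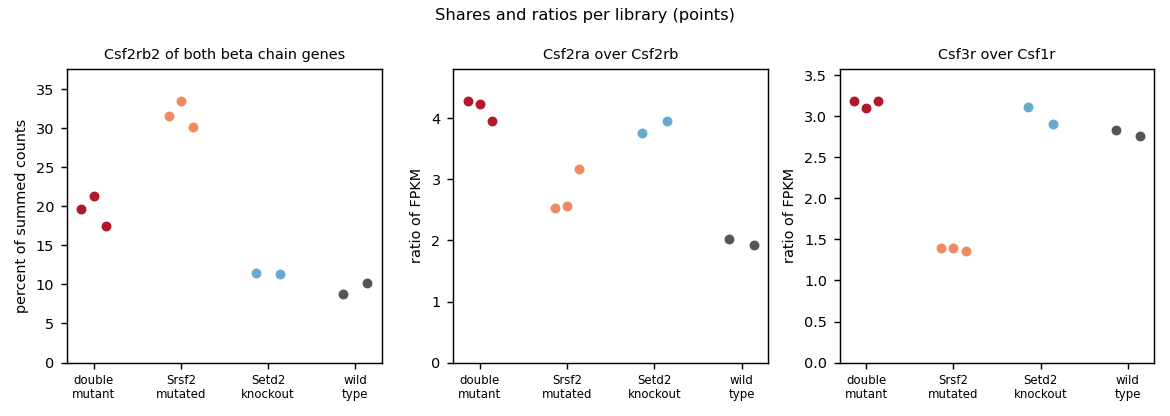
Csf2rb2 as a percent of the summed counts of both beta chain genes, the FPKM ratio of Csf2ra to Csf2rb and the FPKM ratio of Csf3r to Csf1r (y axes from 0), each point 1 library. The Csf2rb2 share is 17.5 to 21.3% in double mutant and 30.2 to 33.5% in Srsf2 mutated libraries, and the Csf3r to Csf1r ratio is lowest in Srsf2 mutated libraries, at 1.36 to 1.39.

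The binding chain and the shared chain did not keep one ratio. Csf2ra stood at 3.96 to 4.29 times Csf2rb on the FPKM scale in double mutant, 2.53 to 3.17 in Srsf2 mutated, 3.76 to 3.95 in Setd2 knockout and 1.93 to 2.03 times in wild type libraries. Csf2ra over Il3ra, the chains that compete for Csf2rb, was 10.5 to 11.3 in double mutant, 4.93 to 5.49 in Srsf2 mutated, 4.07 to 4.37 in Setd2 knockout and 3 to 3.04 in wild type libraries. Csf3r over Csf1r was 3.10 to 3.19 in double mutant, 1.36 to 1.39 in Srsf2 mutated, 2.91 to 3.11 in Setd2 knockout and 2.76 to 2.83 in wild type libraries. These ratios are descriptions of the libraries, with no test.

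Il3ra (chromosome 14, 14346275 to 14356011, plus strand), the interleukin-3 binding chain, varied least. It had 43.5, 41.4 and 43.1 CPM in double mutant, 43.8, 47.5 and 52.1 CPM in Srsf2 mutated, 41.6 and 45.5 CPM in Setd2 knockout and 54.4 and 54.3 CPM in wild type libraries. Wild type libraries were above all others, which overlapped among themselves in part. Double mutant libraries fell by 0.35 ± 0.0859 against wild type (adjusted p = 0.00220), a call that ended with the stricter filter (-0.19, adjusted p = 0.0589). Setd2 knockout against wild type gave -0.32 (adjusted p = 0.0140), a call that ended with upper-quartile scaling (adjusted p = 0.0692), with the stricter filter (-0.21, adjusted p = 0.0712), without Setd2 knockout replicate 1 (adjusted p = 0.170) and without wild type replicate 2 (adjusted p = 0.0505). The other values were -0.19 in Srsf2 mutated against wild type (adjusted p = 0.0767), -0.16 in double mutant against Srsf2 mutated (adjusted p = 0.120) and -0.03 against Setd2 knockout (95% interval -0.20 to 0.14), none of them called. With Srsf2 mutated replicate 3 left out, the value against wild type was -0.25 (adjusted p = 0.0119), and with Srsf2 mutated replicate 1 left out, the double mutant was called against that group at -0.26 (adjusted p = 0.0237), and likewise with upper-quartile scaling at -0.22 (adjusted p = 0.0372).

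Flt3 (chromosome 5, 147330741 to 147400489, minus strand), the receptor of early and dendritic progenitors, was the member that fell most in libraries with mutated Srsf2. It had 34.9, 35.5 and 37.1 CPM in double mutant, 43.3, 41.4 and 44.9 CPM in Srsf2 mutated, 76.7 and 74.3 CPM in Setd2 knockout and 87.2 and 81.0 CPM in wild type libraries. No groups overlapped. Flt3 fell by 1.23 ± 0.0755 on the log2 scale in double mutant against wild type (adjusted p = 1.05e-09), by 1.07 against Setd2 knockout (adjusted p = 6.98e-09) and by 0.27 ± 0.0693 against Srsf2 mutated (adjusted p = 0.00673). It fell by 0.96 in Srsf2 mutated against wild type (adjusted p = 2.88e-08). Setd2 knockout against wild type gave -0.16 ± 0.0827 (adjusted p = 0.151; 95% interval -0.32 to 0.01). Summed stem and multipotent progenitor markers ran in the same order by group mean, 783 to 806 CPM in double mutant, 1016 to 1054 in Srsf2 mutated, 1298 to 1319 in Setd2 knockout and 1301 to 1418 in wild type libraries. The sums of Setd2 knockout and wild type libraries overlapped. Of the 18 genes, 12 were lower and 3 higher in double mutant against wild type. Lymphoid-primed genes, a 12-gene list that itself holds Flt3, ran otherwise in their sum, with 2078 to 2086 CPM in double mutant, 1427 to 1546 in Srsf2 mutated, 639.6 to 644 in Setd2 knockout and 892 to 893 in wild type libraries. By gene, 7 of the 12 were higher and 5 lower in double mutant against wild type, and 4 higher and 7 lower against Srsf2 mutated (median log2 fold change -0.27), where Flt3 was lower too. The dendritic list of 15 genes, which also holds Flt3, summed to 765 to 778 CPM in double mutant, 804 to 878 in Srsf2 mutated, 495 to 512 in Setd2 knockout and 482 to 519 in wild type libraries. Their part in the Flt3 level was not tested.

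Il6ra (chromosome 3, 89864059 to 89913196, minus strand), the interleukin-6 binding chain, was below wild type in both single genotypes and above it in the double mutant, as Csf3r was, in smaller steps. It had 117, 115 and 119.6 CPM in double mutant, 86.7, 86.1 and 76.4 CPM in Srsf2 mutated, 78.9 and 76.3 CPM in Setd2 knockout and 103 and 104 CPM in wild type libraries. The single genotypes overlapped each other and no other group. The double mutant was 1.41-fold above Srsf2 mutated (log2 0.50 ± 0.0650, adjusted p = 1.70e-05) and 1.51-fold above Setd2 knockout (adjusted p = 4.59e-06). Against wild type it was 0.18 ± 0.0726 higher (adjusted p = 0.0380), a call that ended in 9 alternatives: without a filter on low counts (0.16, adjusted p = 0.130) and in 8 that each left out 1 library, any but Srsf2 mutated replicates 2 and 3 (adjusted p up to 0.120). Il6ra fell by 0.41 in Setd2 knockout against wild type (adjusted p = 0.000718) and by 0.32 in Srsf2 mutated against wild type (adjusted p = 0.00155). Its exons share 242 bases with Gm42809, an antisense gene.

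Il6st (chromosome 13, 112464070 to 112510086, plus strand), the shared gp130 chain, did not follow Il6ra and was highest in Setd2 knockout libraries. It had 45.8, 43.7 and 46.4 CPM in double mutant, 45.4, 46.6 and 35.9 CPM in Srsf2 mutated, 66.5 and 61.9 CPM in Setd2 knockout and 47.1 and 54.9 CPM in wild type libraries. Setd2 knockout libraries lay above all others, and double mutant and Srsf2 mutated libraries overlapped. Il6st fell by 0.50 ± 0.105 in double mutant against Setd2 knockout (adjusted p = 0.000794). Setd2 knockout was 0.33 ± 0.116 above wild type (adjusted p = 0.0348), a call that ended without Setd2 knockout replicate 1 (adjusted p = 0.167), without Setd2 knockout replicate 2 (adjusted p = 0.0664) and without wild type replicate 1 (0.22, adjusted p = 0.243). For Srsf2 mutated over wild type the value was -0.26 ± 0.106 (adjusted p = 0.0491), a call that ended in 13 alternatives, among them the leaving out of Srsf2 mutated replicate 3, the lowest library (-0.15, adjusted p = 0.134), and DESeq2 (-0.23, adjusted p = 0.0807). Double mutant libraries were not called against Srsf2 mutated (0.09, adjusted p = 0.542) or wild type (-0.17, adjusted p = 0.170), though the value against wild type passed in a fit of those groups alone (-0.21, adjusted p = 0.0368). Il6ra stood at 3.28 to 3.40 times Il6st on the FPKM scale in double mutant, 2.37 to 2.73 in Srsf2 mutated, 1.53 to 1.58 in Setd2 knockout and 2.43 to 2.80 times in wild type libraries.

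The design also asks whether the labelled Setd2 knockout went with the same change with mutated Srsf2 as with normal Srsf2. The difference of both log2 fold changes was tested in the same fit, and 5 of the 9 receptors passed, all 5 positive, where 31.9% of all genes passed, 16.7% positive and 15.2% negative. For Csf3r the change was 1.31 with mutated Srsf2 and -0.34 with normal Srsf2, a difference of 1.65 ± 0.0941 (adjusted p = 3.72e-09). For Csf2rb it was 0.30 and -0.80, a difference of 1.10 ± 0.114 (adjusted p = 2.13e-06), and for Il6ra 0.50 and -0.41, a difference of 0.91 ± 0.103 (adjusted p = 4.90e-06). These are the members that rose in one setting and fell in the other. Csf2ra, at 0.90 and 0.16, differed by 0.74 ± 0.0906 (adjusted p = 1.15e-05), and Csf1r, at 0.11 and -0.45, by 0.56 ± 0.0962 (adjusted p = 0.000296). Csf2rb2 (-0.66 and -0.52; difference -0.14, 95% interval -0.51 to 0.24), Flt3 (-0.27 and -0.16; difference -0.11, -0.32 to 0.10), Il3ra (-0.16 and -0.32; difference 0.16, -0.08 to 0.40) and Il6st (0.09 and 0.33; difference -0.24, -0.54 to 0.05) did not pass. Without Srsf2 mutated replicate 3 the Il6st difference did, at -0.35 (adjusted p = 0.0202). All 20 late neutrophil genes, 15 of 17 early neutrophil genes and 13 of 22 monocyte and macrophage genes also had a positive difference at this threshold, and their part in the receptors' differences was not tested. Setd2 itself had a difference of -1.14 ± 0.156 (adjusted p = 3.48e-05), at -0.60 with mutated and 0.55 with normal Srsf2. Xist averaged 0.598 CPM in Setd2 knockout and 486 in wild type libraries, so there the sex chromosomes cannot be told apart from genotype.

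**Figure D5:**
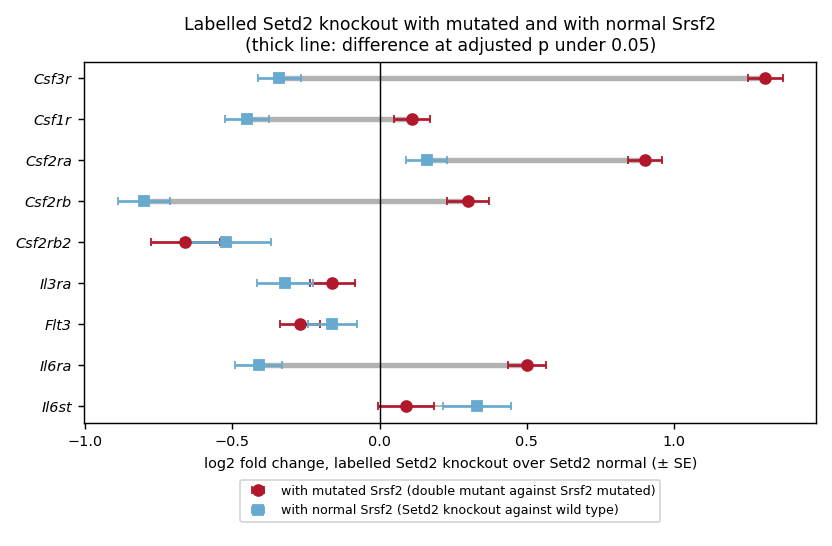
Log2 fold change (x axis, with standard errors) of each receptor in libraries labelled Setd2 knockout over those with normal Setd2, with mutated Srsf2 (circles, double mutant against Srsf2 mutated) and with normal Srsf2 (squares, Setd2 knockout against wild type). Thick lines join pairs whose difference passed an adjusted p of 0.05, and the longest is that of Csf3r, at 1.31 with mutated and -0.34 with normal Srsf2.

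Among the ligands, Il6 and Csf1 rose with the Srsf2 label and less so in the double mutant. Il6 had 38.6, 38.3 and 37.6 CPM in double mutant, 93.0 to 114 CPM in Srsf2 mutated, 1.23 and 1.33 CPM in Setd2 knockout and 0.306 and 0.141 CPM in wild type libraries. Libraries with mutated Srsf2 were all above those without it, and wild type had 13 and 6 counts. The double mutant stood below Srsf2 mutated for Il6 (log2 -1.42 ± 0.0904, adjusted p = 4.57e-09) and for Csf1 (-1.24 ± 0.0751, adjusted p = 2.42e-09), and above wild type for both (7.40 and 2.05). Il6 was also higher in Setd2 knockout against wild type, at low levels (2.51 ± 0.290, adjusted p = 6.61e-06), while Csf1 was not called there (-0.15, adjusted p = 0.270). Csf1, the ligand of Csf1r, had 56.8, 54.6 and 60.2 CPM in double mutant, 137, 146 and 123 CPM in Srsf2 mutated, 12.6 and 12.4 CPM in Setd2 knockout and 13.6 and 14 CPM in wild type libraries. Flt3l, the ligand of Flt3, averaged 5.78 CPM in double mutant, 5.09 in Srsf2 mutated, 6.17 in Setd2 knockout and 1.41 in wild type, higher than wild type in all 3 genotypes (log2 2.03, 1.85 and 2.13; adjusted p = 4.91e-06, 1.76e-05 and 1.85e-05).

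Csf3, Csf2, Il34 and Il3 were barely detected or absent. Csf3, the ligand of Csf3r, had 25 counts in double mutant, 29 in Srsf2 mutated (27 of them in replicate 1), 3 in Setd2 knockout and 1 in wild type libraries in all. Csf2 had 12, 20 and 1 counts in the Srsf2 mutated libraries and 0 in all other libraries, and was called higher in Srsf2 mutated against wild type (adjusted p = 0.0318) and lower in double mutant against Srsf2 mutated (adjusted p = 0.0235). Csf3 was called in no comparison, at an unadjusted p of at least 0.0635. Il34 had 3 counts in 1 double mutant library, and Il3 had none in any library. Osm, which signals through Il6st, was high in libraries with mutated Srsf2, at 332 CPM in double mutant, 447 in Srsf2 mutated, 27.1 in Setd2 knockout and 30.5 in wild type. From a 12-gene list 10 ligands were tested. In double mutant against wild type 6 were higher and 1 lower (all tested genes: 33.5% higher, 29.5% lower). Against Srsf2 mutated 0 were higher and 5 lower (17.8% and 15.9%). In Srsf2 mutated against wild type 7 were higher and 1 lower (28.5% and 27.8%).

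JAK kinases and STAT factors, which carry the signal of the cytokine receptors, were mostly lower in Srsf2 mutated against wild type. Of 11 genes, 0 were higher and 10 lower in Srsf2 mutated against wild type (all tested genes: 28.5% higher, 27.8% lower). Their median log2 fold change was -0.34 there, against 0.08 over all tested genes. In double mutant against Srsf2 mutated 7 were higher and 1 lower (17.8% and 15.9%), with a median of 0.32, against 0.00. In double mutant against wild type 3 were higher and 5 lower (33.5% and 29.5%). In Setd2 knockout against wild type 0 were higher and 4 lower (18.7% and 19.9%). Stat5a averaged 83.2 CPM in double mutant, 79.5 in Srsf2 mutated, 167 in Setd2 knockout and 154 in wild type, and fell by 0.89 in double mutant against wild type (adjusted p = 9.70e-09) and by 0.96 in Srsf2 mutated against wild type (adjusted p = 7.00e-09). Stat3, the main factor of Csf3r and Il6st, averaged 249.8 CPM in double mutant, 189 in Srsf2 mutated, 150.4 in Setd2 knockout and 236 in wild type, and fell by 0.65 in Setd2 knockout against wild type (adjusted p = 7.43e-05). Jak3 was the list's 1 lower call in double mutant against Srsf2 mutated (78.9 and 119 CPM; log2 -0.59, adjusted p = 3.21e-06).

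The 20 other carriers close to the receptors, kinases and adaptors such as Lyn and Gab2 that act beside the JAK kinases, were mostly lower in each single genotype against wild type. In double mutant against Srsf2 mutated 8 were higher and 0 lower with 12 not called (all tested genes: 17.8% higher, 15.9% lower). In double mutant against wild type 7 were higher and 6 lower (33.5% and 29.5%). In Srsf2 mutated against wild type 2 were higher and 14 lower (28.5% and 27.8%). In Setd2 knockout against wild type 2 were higher and 17 lower (18.7% and 19.9%). Fgr, a SRC-family kinase of myeloid cells, averaged 133 CPM in double mutant, 65.3 in Srsf2 mutated, 19.0 in Setd2 knockout and 58.6 in wild type, with log2 fold changes of 1.03 against Srsf2 mutated (adjusted p = 8.60e-08) and -1.63 in Setd2 knockout against wild type (adjusted p = 2.04e-08). In the test of the difference, 14 of the 20 were positive and 0 negative (all tested genes: 16.7% positive, 15.2% negative).

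Several inhibitors and targets of the pathway were far higher in libraries with mutated Srsf2. Socs3, the feedback inhibitor of Il6st and Csf3r signaling, averaged 482 CPM in double mutant, 532 in Srsf2 mutated, 5.61 in Setd2 knockout and 6.87 in wild type, with a log2 fold change of 6.13 ± 0.110 in double mutant against wild type (adjusted p = 5.71e-16). Cish, a STAT5 target that damps beta chain signaling, averaged 55.5 CPM in double mutant, 62.7 in Srsf2 mutated, 1.79 in Setd2 knockout and 2.33 in wild type. Socs1, an inhibitor of JAK kinases, averaged 44.6 CPM in double mutant, 43.4 in Srsf2 mutated, 2.64 in Setd2 knockout and 3.94 in wild type. Over the 17 inhibitors, though, 8 were higher and 5 lower in double mutant against wild type (all tested genes: 33.5% higher, 29.5% lower). Against Srsf2 mutated 4 were higher and 3 lower (17.8% and 15.9%). The 20 early targets of STAT3 and STAT5 include Socs3 and Cish, also inhibitors, and Osm, also a ligand. Of these 20 targets, 12 were higher and 4 lower in double mutant against wild type. Against Setd2 knockout 16 were higher and 3 lower (all tested genes: 26% higher, 25.8% lower). Pim1, a kinase gene of the list, averaged 791 CPM in double mutant, 662 in Srsf2 mutated, 112 in Setd2 knockout and 106 in wild type. Bcl2l1, which encodes the survival factor BCL-XL, was higher in double mutant (80.8 CPM) than in Srsf2 mutated (32.5 CPM; log2 1.32, adjusted p = 6.57e-09). In Setd2 knockout against wild type, 1 target was higher and 12 lower (all tested genes: 18.7% higher, 19.9% lower). The target list holds genes that many other signals switch on, and no list here was tested as a set.

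Of 28 other receptors tested, 12 were higher and 9 lower in double mutant against wild type (all tested genes: 33.5% higher, 29.5% lower). Against Srsf2 mutated 11 were higher and 8 lower (17.8% and 15.9%). In Setd2 knockout against wild type 3 were higher and 11 lower (18.7% and 19.9%). Epor, the erythropoietin receptor, averaged 66.5 CPM in double mutant, 13.9 in Srsf2 mutated, 68.0 in Setd2 knockout and 16.3 in wild type, and so went with the Setd2 label whichever the Srsf2 label. The 19 erythroid genes found summed to 23368 to 24737 CPM in double mutant, 6700 to 8304 in Srsf2 mutated, 3432 to 3460 in Setd2 knockout and 1182 to 1254 in wild type libraries, and their part in that level was not tested. Il13ra1, an interleukin-13 receptor chain, averaged 21.4 CPM in double mutant, 9.72 in Srsf2 mutated, 2.13 in Setd2 knockout and 1.54 in wild type.

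Transcription factors known to act on the receptor genes did not move as 1 group. Of 20, 5 were higher and 12 lower in double mutant against wild type (all tested genes: 33.5% higher, 29.5% lower). Against Srsf2 mutated 4 were higher and 10 lower (17.8% and 15.9%). In Setd2 knockout against wild type 6 were higher and 9 lower (18.7% and 19.9%). Spi1 (PU.1), which acts on Csf1r, Csf3r and Csf2ra, averaged 299 CPM in double mutant, 263 in Srsf2 mutated, 179 in Setd2 knockout and 353 in wild type. It fell by 0.98 in Setd2 knockout against wild type (adjusted p = 8.34e-07), and its difference between the Srsf2 settings was 1.16 (adjusted p = 1.77e-06). Cebpa, a factor of granulocyte progenitors, averaged 101 CPM in double mutant, 148 in Srsf2 mutated, 181 in Setd2 knockout and 348 in wild type, highest in wild type where Csf3r was not. Cebpe, its successor in maturing granulocytes, averaged 94.9 CPM in double mutant, 71.7 in Srsf2 mutated, 71.7 in Setd2 knockout and 200 in wild type. Cebpb, the factor of emergency granulopoiesis, averaged 213 CPM in double mutant, 128 in Srsf2 mutated, 42.0 in Setd2 knockout and 76.5 in wild type. It was highest in double mutant libraries, as Csf3r was, but its mean was above wild type in Srsf2 mutated libraries, where Csf3r was lowest. Gfi1, a repressor needed for neutrophil production, averaged 42.9 CPM in double mutant, 49.3 in Srsf2 mutated, 135 in Setd2 knockout and 210 in wild type. Egr2, a factor of macrophage differentiation, averaged 36.7 CPM in double mutant, 42.4 in Srsf2 mutated, 0.962 in Setd2 knockout and 0.882 in wild type.

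The members fell apart into patterns of their own rather than a common one. The root mean square distance between the centred log2 group means was smallest for Csf1r and Csf2rb (0.14), followed by Il3ra and Il6ra (0.27), Il3ra and Il6st (0.28) and Csf3r and Il6ra (0.30), and largest for Csf2rb2 and Flt3 (1.61). Among 11253 genes reaching a mean of 5 CPM in a group, those most like Csf3r over the 4 group means were Tlr6 (distance 0.047) and Gda (0.076), and 45 genes lay within 0.2 of it. Csf2rb2 had the fewest near patterns, 9 genes within 0.2, led by Il18r1 (0.080) and Nfkbie (0.114). The nearest to Csf2ra were Srxn1 and Il18bp (both 0.058), with 124 genes within 0.2. Csf2rb lay nearest to Dok2 (0.026) and Tmem120a (0.032), Csf1r to Furin (0.016) and Pik3c2a (0.028), Flt3 to Entpd6 (0.016) and Zfp213 (0.030), and Il6ra to Rab7 (0.019) and Arhgef11 (0.035). For the flat Il3ra 3201 genes lay within 0.2, Ccdc28b (0.009) and Mrpl28 (0.012) nearest, and for Il6st 1814, Alpk1 (0.006) and Utp25 (0.023) nearest. A likeness over 4 group means is a description.

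The authors' deposited table for double mutant against Srsf2 mutated gave wider errors than the fit to the counts. It lists Csf3r at a log2 fold change of 1.23 with a standard error of 0.358 (adjusted p = 0.0125), Csf2rb2 at -0.73 (adjusted p = 0.0452), Csf2ra at 0.83 (adjusted p = 0.0564) and Il6ra at 0.43 (adjusted p = 0.548). Csf2rb stands there at 0.22 (adjusted p = 0.89) and Flt3 at -0.34 (adjusted p = 0.714). Of the 9 receptors only Csf3r and Csf2rb2 pass 0.05 in that table. Csf2ra, Il6ra, Csf2rb and Flt3 were called in the fit to the counts but do not pass there. In the authors' deposited table for that pair the mean normalised count lies below every listed count for all 9 receptors (4297 for Csf3r, where the lowest listed count is 6511), and the reason was not tested. For Setd2 knockout against wild type, the authors' deposited table lists Csf3r at -0.35 (standard error 0.0757) and Csf2rb at -0.80 (standard error 0.0946).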

How the data were processed

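Of the 13 samples, the 10 bulk RNA-seq libraries were used and the 3 single-cell ones were not analysed here. Per the file headers, the 3 deposited tables give whole-number counts per gene and library and FPKM, the count per listed gene length and library total; the counts of 5 libraries listed in more than 1 table were the same in both. The tables also hold the authors' log2 fold changes, the authors' p-values and adjusted p-values and, as scores of the authors' fit, a Wald statistic, a standard error and a mean normalised count. Per the submitters' processing notes, the tools of the series, with no role given, were the aligners STAR 2.6.1a and HISAT2 2.0.5, the counters featureCounts 2.0.1 and HTSeq 0.9.1, then SAMtools 1.7, Seurat 3.2.0 and DESeq2 1.22.2; the bulk strandedness is not given in the sources used here. Gene positions are GRCm38 (GENCODE M21).

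From the counts, edgeR 4.0.16 (R 4.3.3; limma 3.58.1) was fitted once to all 10 libraries: filterByExpr, TMM scaling, a quasi-likelihood F test (two-sided), Benjamini-Hochberg over 19289 genes, adjusted p under 0.05. Its 5 pairwise contrasts and the difference of the double mutant against Srsf2 mutated contrast and the Setd2 knockout against wild type contrast were tested. The fit gives each gene 1 spread for all groups, though the groups differed in spread. Their biological coefficient of variation was 0.194 in Srsf2 mutated, 0.105 in wild type, 0.0773 in double mutant and 0.0563 in Setd2 knockout libraries. Standard errors can thus be too small for comparisons with the Srsf2 mutated group. They were derived from the log2 fold change and the F statistic. The 95% intervals take a normal distribution around them, and with so few libraries can be too narrow. CPM are TMM-scaled. Counts were also simulated for the same genes with the fit's own spread, the same in all groups. Changes of 1 log2 unit were placed in 100 of the genes, none of low level. The pairwise tests recovered 95% to 100% of these changes, and the test of the difference was not simulated. FPKM, which carries no TMM scaling, served for levels between genes, their sum over the receptors and ratios. Alternatives were other scalings, filters, a replicate block, only the groups compared, DESeq2 1.42.0 and each library left out; those and their effect are given in the closing section. All 9 receptors and their ligands were named, the 2 genes nearest to each receptor in pattern (log2 of CPM plus 0.5), and of each list at most 3 called genes by adjusted p and 2 by size per comparison; markers at most 3 a list; some genes that this rule names are not reported here. The receptors, the 7 pathway lists and the 13 marker lists were chosen with earlier results of these data known. A chi-square comparison of counts within groups found no library deposited more than once.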

Additional observations from a re-analysis of the deposited data

Results flagged for a closer look

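For 5 receptors the change that went with the labelled Setd2 knockout differed between libraries with mutated and with normal Srsf2, in a test of the difference itself (edgeR, adjusted over all genes). The difference of the log2 fold changes was 1.65 for Csf3r (1.31 with mutated, -0.34 with normal Srsf2), 1.10 for Csf2rb (0.30 and -0.80), 0.91 for Il6ra (0.50 and -0.41), 0.74 for Csf2ra (0.90 and 0.16) and 0.56 for Csf1r (0.11 and -0.45). All 5 kept their direction and their call under every alternative tried. With Csf2rb and Csf2rb2 counted together the beta chain difference was 0.83 (adjusted p = 9.14e-05). Of the 20 late neutrophil markers, all 20 had a positive difference, as did 15 of 17 early ones, and their part in these results was not tested. Setd2 itself had a difference of -1.14 (adjusted p = 3.48e-05), and Setd2 knockout and wild type libraries differed in Xist (0.598 and 486 CPM). No group had the 4 samples that a check for single outlying libraries needs.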

How the results depend on the processing

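Over 54 receptor comparisons and their alternatives, 866 of 921 values kept their direction and their side of the threshold, 34 lost the call, 13 gained it and 8 changed sign; 37 of the 54 comparisons held under every alternative run. Leaving out 1 library gave 4851 to 8782 called genes in Setd2 knockout against wild type (7449 with all), 8812 to 11520 in Srsf2 mutated against wild type, 5343 to 6769 in double mutant against Srsf2 mutated, 7911 to 11047 against Setd2 knockout, 10242 to 12953 against wild type and 4540 to 7547 for the difference, and 4 to 8, 6 to 8, 6 to 7, 8 to 8, 7 to 8 and 5 to 6 called receptors. Without Setd2 knockout replicate 1, where the lone sample of that group is assumed to vary like the others, 4 receptors were called against wild type in place of 7. Among values that were not called, the sign changed for Il6st in double mutant against Srsf2 mutated without Srsf2 mutated replicate 3 (-0.023; range with 1 library left out -0.023 to 0.16), Il3ra in double mutant against Setd2 knockout with median-of-ratios scaling (0.0042), the stricter filter (0.024), DESeq2 (0.0041) and without Setd2 knockout replicate 2 (0.036), and Csf2rb2 in the difference without wild type replicate 1 (range with 1 library left out -0.31 to 0.020). With both beta chain genes summed, the value set against Csf2rb2 stands at 0.053 in double mutant against Srsf2 mutated and at 0.83 in the difference, since the sum is mostly Csf2rb. Upper-quartile scaling moved the share of higher calls to 59.5% in Setd2 knockout against wild type (48.4% with TMM) and to 37.6% in the difference (52.4% with TMM), where the median of all genes moved by -0.14; the stricter filter moved it by -0.13 in double mutant against wild type. The cause was not tested. Deviations of same-numbered libraries from their group means correlated at -0.028 to 0.040. In a group of 2 libraries these deviations mirror each other, so the check cannot exclude a pairing. With the replicate block, Il3ra in Srsf2 mutated against wild type gained the call (-0.22, adjusted p = 0.0425). Il6st there lost it (-0.22, adjusted p = 0.104), and no other receptor call changed. For Csf3, at 0 to 27 counts a library, no difference between groups was called, and 27 of the 29 counts in Srsf2 mutated libraries lay in replicate 1.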
